A study of Homo sapiens with 6 samples.

Results

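The 9 genes described here encode enzymes that make or interconvert asparagine, aspartate, alanine, proline, ornithine, glutamate and glutamine: ASNS, GPT2, PYCR1, ALDH18A1, GOT1, GOT2, GLUD1, GLUL and OAT. They were taken as the rows of the count and FPKM tables that carry these symbols, 9 of 28565 genes in the count table. They were selected on their shared function and on fold changes between 0 h and 24 h of cisplatin that were already known, so that change is given for them as a description. All libraries came from HK-2, an immortalised line of human proximal tubule epithelium of the kidney. All of them, at either time, had been lipofected with a plasmid that overexpresses a long noncoding RNA, called LncR2 in the titles. The 2 groups are HK-2 with this plasmid at 0 h of cisplatin (3 libraries) and HK-2 with this plasmid at 24 h of cisplatin (3 libraries). Cisplatin is a platinum drug that crosslinks DNA, and its dose is not given in the sources used here. Cells kept for 24 h without cisplatin were not analysed here, so cisplatin and time after transfection cannot be told apart. Cells with a control plasmid were not analysed here either, so the effect of the plasmid was not measured.

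Asparagine synthetase (ASNS) moves the amide nitrogen of glutamine onto aspartate. The aminotransferases GOT1 and GOT2 (aspartate), GPT2 (alanine) and OAT (ornithine) pass amino groups between amino acids and keto acids, with glutamate as the common partner, while GLUD1 releases ammonia from glutamate and GLUL fixes it as glutamine. ALDH18A1 and PYCR1 carry out the route from glutamate to proline in mitochondria. When amino acids run short or the endoplasmic reticulum is stressed, the transcription factor ATF4 raises ASNS and other genes of this kind through a composite element that joins a C/EBP site to an ATF site. Proximal tubule cells are known for heavy use of glutamine and glutamate.

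The 0 h libraries held between 5028881 and 5844246 counts and the 24 h libraries between 6022268 and 7248754, so the later libraries were the deeper ones. 0 h replicate 3 stood apart from 0 h replicates 1 and 2 along principal component 1, which held 39.6% of the variance, at 1.17 against -23.0 and -23.8 and nearer to 24 h replicate 1 at 6.22, and along component 2 (27.9%), at -29.4 against 8.36 and -1.48. Along component 1 the libraries stood in the order of their totals, so depth and time cannot be told apart there. The keratins KRT8 and KRT18, the renal factor PAX8 and the tubule enzyme GGT1 were read in every library. The summed level of 8 epithelial and renal genes was 1086 to 1143 CPM at 0 h and 1017 to 1148 CPM at 24 h, although CDH1 (E-cadherin) had at most 1 count in a library. Of 10 proximal tubule genes 3 (LRP2, SLC22A6 and SLC22A8) had no counts, HNF4A and ANPEP had at most 2 counts in a library, and the summed level of 51.3 to 65.0 CPM was nearly all GGT1, a gene with near-identical copies. The summed levels of 6 fibroblast genes were 16.0 to 18.4 CPM at 0 h and 16.7 to 20.5 CPM at 24 h, those of 5 endothelial genes at most 0.399 and 0.724 CPM, and those of 5 leukocyte genes 2.19 to 2.65 and 1.23 to 3.47 CPM. In bulk RNA, fewer cells of a type and less RNA per cell cannot be told apart.

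The element through which amino acid shortage is known to raise ASNS is visible in the sequence before its start. It is shown with the genes that fell already known, and whether it had a part in any change was not tested. RefSeq windows of 300 bases on GRCh38.p14, 250 before and 50 after a gene's start, were searched for the core TGATGNAA on both strands. Windows were used for 7 of the 9 genes, ASNS, ALDH18A1, GOT1, GOT2, GLUD1, GLUL and OAT, and not for GPT2 and PYCR1. The core was found in 2 of the 7, ASNS and GOT1, and in 3.62% of all 35116 windows (4.46% of 27305 genes). Of 36 tested related genes with a window 2 held it, BCAT1 and SLC25A11. Stretches of 30 bases follow, each written 5′ to 3′ on the strand that reads TGATGNAA, with the core in capitals. In ASNS the hexamer GTTACA, the other element of the known nutrient-sensing unit of this promoter, is also in capitals.
ASNS: caTGATGAAActtcccgcacgcGTTACAgg
GOT1: aaTGATGCAAccaatgcaatttcctccggc
BCAT1: gcTGATGCAAtccgctaggtcgcgagtctc
SLC25A11: ctTGATGGAAgcgtgcgagaaggggcgtaa

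The ASNS stretch is chr7:97872449-97872478 on the minus strand, the strand of the gene. Its core spans positions -68 to -61 from the RefSeq start at 97872408, with GTTACA from -48 to -43. The window of the other RefSeq start of ASNS, at 97872165, held neither. The hexamer alone is common, being in 6.66% of all windows on either strand. The GOT1 stretch is chr10:99430813-99430842 on the plus strand, opposite to the gene, with its core from -198 to -191. The BCAT1 stretch is chr12:24949122-24949151 on the minus strand, with its core from -48 to -41. The SLC25A11 stretch is chr17:4940108-4940137 on the plus strand, opposite to the gene, with its core from -71 to -64. GOT1 and BCAT1 hold the same 8 letters TGATGCAA, while ASNS has A and SLC25A11 has G in place of the free base. In GENCODE 29 some transcripts of ASNS and GOT1 start before the RefSeq start, so these stretches lie within the annotated span of those genes. A match is a description of the letters in this window.

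After 24 h of cisplatin, 4 of the 9 genes were lower and none was higher. ASNS fell 3.07-fold, GPT2 fell 1.66-fold, PYCR1 fell 1.44-fold and GOT1 fell 1.43-fold. GOT2, GLUD1, GLUL, OAT and ALDH18A1 did not pass, with log2 fold changes between -0.03 and 0.16. All 9 passed the filter on low counts, with 184 to 1294 counts per gene and library. Calls were made with edgeR (quasi-likelihood test, Benjamini-Hochberg adjustment over 13389 genes, adjusted p under 0.05), by which 2.08% of all genes tested were lower and 0.866% were higher, 2.94% in all. The 24 h libraries lay wholly below the 0 h libraries in the same 4 genes, a pattern found in 11.7% of all genes tested (22.6% when either direction is counted). Because the list was made with this comparison known, nothing is read from these shares. The median log2 fold change of the 9 genes was -0.03, beside 0.00 for all genes tested, so the list as a whole held genes that fell beside genes that stayed near the median gene. Levels below are CPM, counts scaled to library totals with TMM factors, as mean ± SD over 3 libraries.

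**Figure D1:**
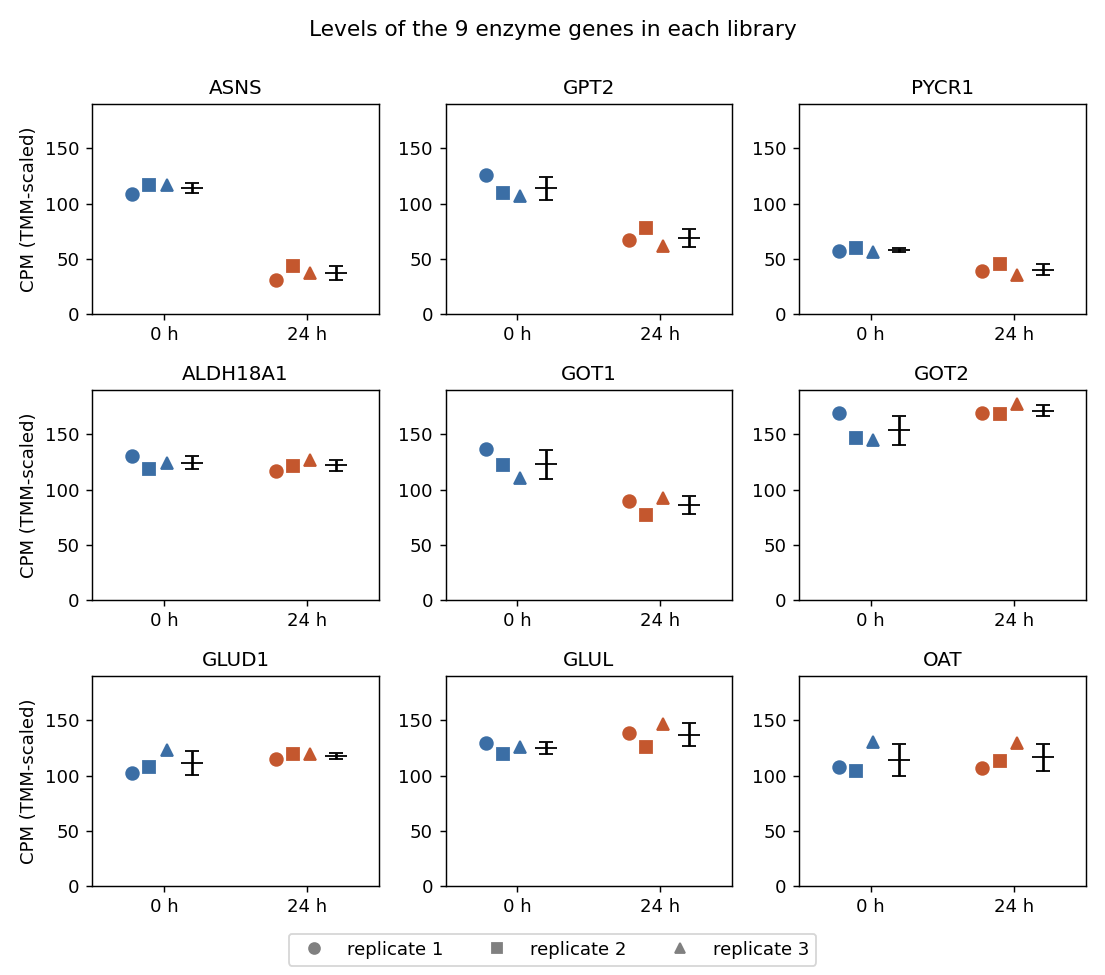
Levels of the 9 genes in CPM (y axis, from 0) at 0 h (blue) and 24 h (orange), 1 symbol per library, with mean ± SD in black (n = 3). In ASNS, GPT2, PYCR1 and GOT1 every 24 h library is below every 0 h library, and in the other 5 genes the times overlap.

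ASNS (ENSG00000070669.16; chromosome 7, 97852118 to 97872542, minus strand of GRCh38 in GENCODE 29) was at 109, 116 and 117 CPM in 0 h replicates 1, 2 and 3 and at 30.4, 43.3 and 37.3 CPM in 24 h replicates 1, 2 and 3. The libraries at 0 h lay close together, and the highest library at 24 h was still well below the lowest at 0 h. Its level went from 114 ± 4.45 to 37.0 ± 6.47 CPM (SD, n = 3 each). The log2 fold change was -1.62 ± 0.12 (SE; 95% interval -1.88 to -1.36). The spread relative to the mean was 3.90% at 0 h and 17.5% at 24 h, the widest of the 9 genes at 24 h. ASNS was called in all 18 alternative analyses, with values from -1.75 to -1.31. It shares 1985 exon bases with the transcript AC079781.5 on the same strand, for which no value was analysed here.

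GPT2 (ENSG00000166123.13; chromosome 16, 46884378 to 46931297, plus strand) is the mitochondrial alanine aminotransferase, which makes alanine from pyruvate and glutamate. It was at 126, 109.6 and 107 CPM in the 0 h replicates and at 66.6, 77.6 and 61.6 CPM in the 24 h replicates. The groups were apart by 29.1 CPM at their closest, between 0 h replicate 3 and 24 h replicate 2. The level went from 114 ± 10.4 to 68.6 ± 8.18 CPM (SD, n = 3 each), and the log2 fold change was -0.73 ± 0.11 (SE; 95% interval -0.97 to -0.49). GPT2 was called in all 18 alternatives, from -0.83 to -0.46. Its cytosolic paralog GPT had at most 2 counts in a library and 5 in all, so alanine aminotransferase reads in these cells were nearly all from GPT2.

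GOT1 and GOT2 are the cytosolic and mitochondrial aspartate aminotransferases, the enzymes at the ends of the malate-aspartate shuttle. GOT1 (ENSG00000120053.10; chromosome 10, 99396870 to 99431569, minus strand) was at 137, 122 and 111 CPM in the 0 h replicates and at 89.6, 76.6 and 92.3 CPM in the 24 h replicates. The lowest library at 0 h was replicate 3, and it was 18.2 CPM above the highest at 24 h. The log2 fold change was -0.51 ± 0.11 (SE; 95% interval -0.75 to -0.28), from 123 ± 13.1 to 86.1 ± 8.41 CPM (SD, n = 3 each). Leaving out 0 h replicate 1 (-0.43), 0 h replicate 2 (-0.52) or 24 h replicate 2 (-0.43) ended its call. GOT2 (ENSG00000125166.12; chromosome 16, 58707131 to 58734357, minus strand) was at 169, 147 and 145 CPM in the 0 h replicates and at 169.6, 168 and 177 CPM in the 24 h replicates. Replicate 1 at 0 h reached the level of the 24 h libraries, and the other libraries at 0 h were lower. The log2 fold change of GOT2 was 0.16 ± 0.10 (SE; 95% interval -0.05 to 0.37), from 154 ± 13.5 to 172 ± 5.01 CPM (SD, n = 3 each).

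PYCR1 (ENSG00000183010.16; chromosome 17, 81932384 to 81942412, minus strand) encodes a mitochondrial pyrroline-5-carboxylate reductase, the last enzyme of proline synthesis. It was the least abundant of the 9 genes in CPM at 0 h, with 57.0, 59.6 and 56.1 CPM in the 0 h replicates, and was at 38.8, 45.4 and 35.4 CPM in the 24 h replicates. The 0 h libraries lay within 3.45 CPM of each other, and the 24 h libraries spread more widely below them. The log2 fold change was -0.53 ± 0.12 (SE; 95% interval -0.78 to -0.28), from 57.6 ± 1.79 to 39.9 ± 5.12 CPM (SD, n = 3 each). Leaving out 0 h replicate 2 (-0.51), 24 h replicate 1 (-0.51) or 24 h replicate 3 (-0.45) ended its call.

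The enzymes that feed pyrroline-5-carboxylate to PYCR1 did not pass. ALDH18A1 (ENSG00000059573.8; chromosome 10, 95605929 to 95656706, minus strand), the synthase that makes this intermediate from glutamate, was at 130.4, 118 and 124 CPM in the 0 h replicates and at 117, 122 and 127 CPM in the 24 h replicates. Its log2 fold change was -0.03 ± 0.10 (SE; 95% interval -0.23 to 0.18), and it turned above 0 in 6 of 18 alternatives. OAT (ENSG00000065154.11; chromosome 10, 124397303 to 124418976, minus strand), which forms the same intermediate from ornithine, was at 108, 104 and 130.5 CPM in the 0 h replicates and at 107, 113 and 129.9 CPM in the 24 h replicates. Within each time replicate 3 was the highest for OAT, and the times overlapped fully. The log2 fold change of OAT was 0.03 ± 0.11 (SE; 95% interval -0.21 to 0.27), and it turned below 0 in 3 of 18 alternatives. For both genes the interval under TMM scaling leaves out a change as large as that estimated for PYCR1 with the same scaling.

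GLUD1, glutamate dehydrogenase, and GLUL, glutamine synthetase, handle free ammonia and did not pass either. GLUD1 (ENSG00000148672.8; chromosome 10, 87050486 to 87094866, minus strand) ran from 103 to 123 CPM at 0 h and from 115 to 119.8 CPM at 24 h, with 0 h replicate 3 above every other library. Its log2 fold change was 0.08 ± 0.10 (SE; 95% interval -0.13 to 0.30). GLUL (ENSG00000135821.16; chromosome 1, 182381704 to 182392206, minus strand) ran from 119 to 129 CPM at 0 h and from 126 to 147 CPM at 24 h. Its log2 fold change was 0.13 ± 0.10 (SE; 95% interval -0.07 to 0.34). Copies of the 9 genes took few reads: the pseudogenes GLUD1P3 and GLUD1P7 held 1.20% and 0.385% as many counts as GLUD1, and the paralog GLUD2 held 0.120%. GLUD1 shares 464 exon bases with SHLD2 on the opposite strand, which had 56 to 112 counts per library, and the other overlapping genes with values had at most 11. How reads shared by such genes were counted is not given, so these values are uncertain to that extent.

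**Figure D2:**
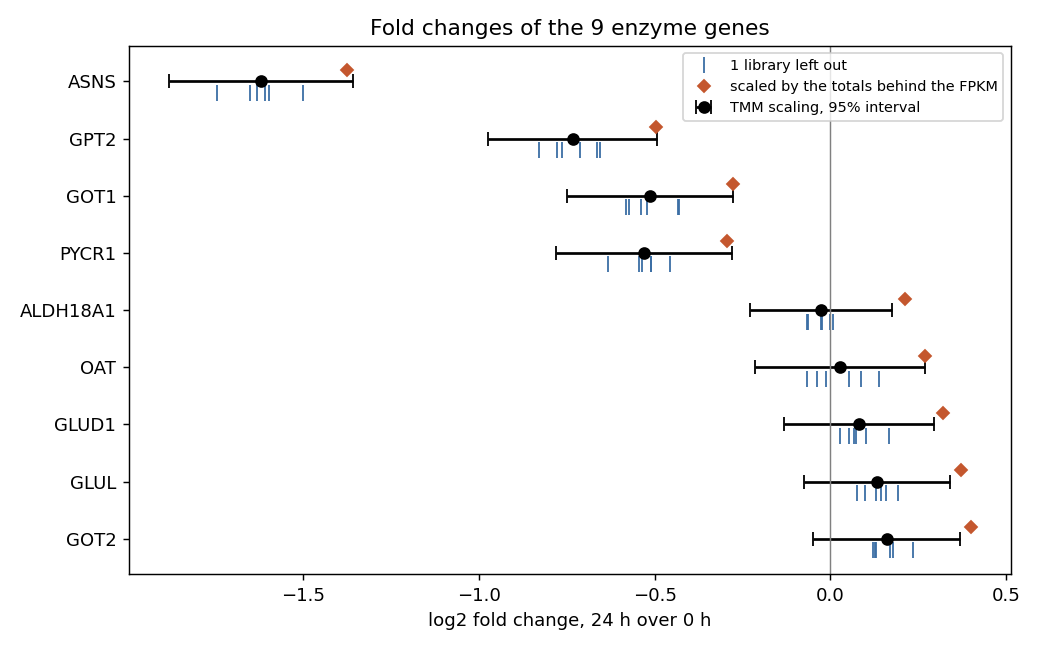
Log2 fold changes of the 9 genes, 24 h over 0 h (x axis), with the 95% interval under TMM scaling in black, the 6 values with 1 library left out as blue ticks and the value under the scaling behind the FPKM as orange diamonds. The intervals of ASNS, GPT2, GOT1 and PYCR1 lie below 0, those of the other 5 genes hold 0, and the diamonds lie to the right of the black points throughout.

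These directions are relative to the median gene. The totals by which the authors scaled the FPKM, recovered from counts and FPKM, rise less from 0 h to 24 h than the counts do, and with them the median log2 fold change of all genes is higher by 0.24. With that scaling 2 of the 9 genes were lower and 2 were higher, beside 195 lower and 2354 higher among all genes (92.3% of calls higher, against 29.4% with TMM). ASNS (-1.38) and GPT2 (-0.49) still fell, and GOT2 (0.40) and GLUL (0.37) rose. GOT1 (-0.28) and PYCR1 (-0.29) no longer passed, with adjusted p = 0.121 and 0.129 by edgeR's quasi-likelihood test. Limma on log2(FPKM + 1) called 3 of the 9 genes, ASNS and GPT2 lower and GOT2 higher, in a fit that called 13.4% of all genes, with 92.3% of these calls higher.

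The ratio of a pair of genes within a library does not depend on the scaling of libraries. There are 4 such pairs shown, which share a substrate or a reaction and were chosen after the levels were seen, with no test. The FPKM ratio of GOT1 to GOT2 was 1.02, 1.05 and 0.965 in the 0 h replicates and 0.668, 0.576 and 0.658 in the 24 h replicates. The cytosolic and mitochondrial transcripts were thus near parity at 0 h, and every 24 h library was on the side of the mitochondrial form. The ratio of ASNS, which consumes glutamine, to GLUL, which makes it, went from 2.03 ± 0.151 to 0.606 ± 0.141 (SD, n = 3 each). ASNS was above GLUL in all 3 libraries at 0 h and below it in all 3 at 24 h. The ratio of PYCR1 to ALDH18A1 went from 0.678 ± 0.0505 to 0.479 ± 0.0695, and that of GPT2 to GLUD1 from 0.705 ± 0.124 to 0.396 ± 0.0445 (SD, n = 3 each). In each of the 4 pairs the 24 h libraries lay below the 0 h libraries with no overlap. Each pair sets a gene that was called lower over a gene that did not pass, so this repeats the levels given above. A ratio shows unequal change of its genes and not which of them changed.

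**Figure D3:**
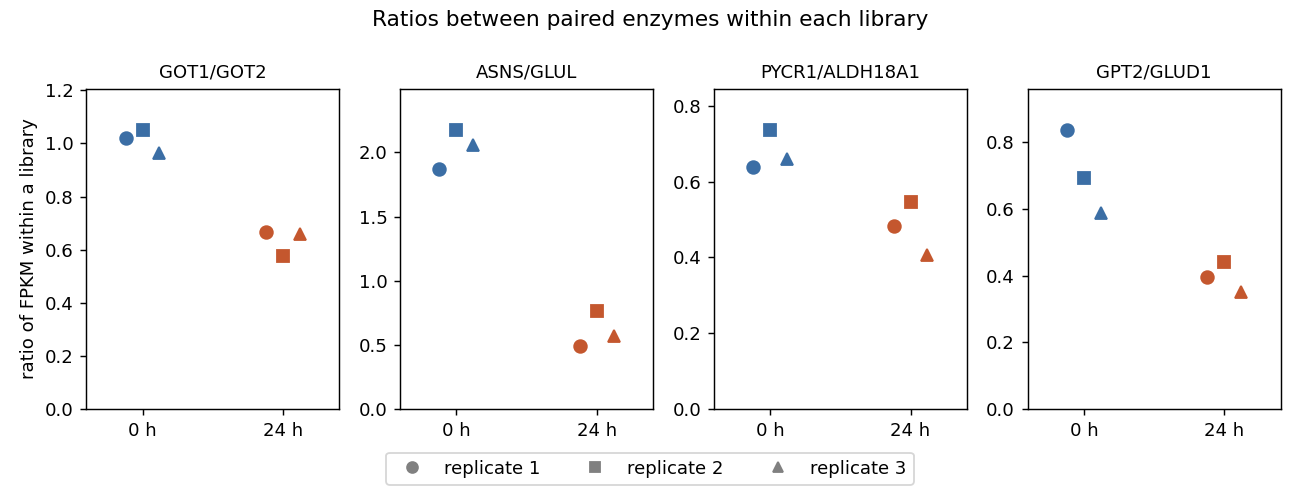
Ratios of FPKM between paired genes within each library (y axes, from 0) at 0 h (blue) and 24 h (orange), 1 symbol per library. In all 4 panels the 24 h libraries lie below the 0 h libraries, and GOT1 to GOT2 goes from about parity (1.01 ± 0.0424) to 0.634 ± 0.0506 (SD, n = 3 each).

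Levels between genes were compared per length, in FPKM. At 0 h the order was GOT1 (35.6 ± 3.74 FPKM), GOT2 (35.2 ± 2.97), OAT (30.8 ± 3.69), ASNS (25.8 ± 1.12), ALDH18A1 (20.9 ± 0.866), GLUD1 (20.6 ± 1.97), GPT2 (14.4 ± 1.27), PYCR1 (14.1 ± 0.550) and GLUL (12.7 ± 0.429; SD, n = 3 each). Neighbours whose libraries overlapped were GOT1 with GOT2, GOT2 with OAT, ALDH18A1 with GLUD1, and GPT2 with PYCR1. At 24 h GOT2 led with 46.4 ± 3.98 FPKM and ASNS was last with 9.92 ± 2.22 FPKM, and the libraries of ASNS overlapped those of GPT2 (10.2 ± 1.42) and PYCR1 (11.5 ± 1.69; SD, n = 3 each). ASNS thus went from the fourth place to the ninth. GLUL went from the ninth place to the sixth at 16.4 ± 1.76 FPKM, past ASNS, GPT2 and PYCR1, which were called lower. GLUL itself did not pass under TMM scaling (log2 fold change 0.13). Under the scaling behind the FPKM the median change of all genes is higher by 0.24.

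**Figure D4:**
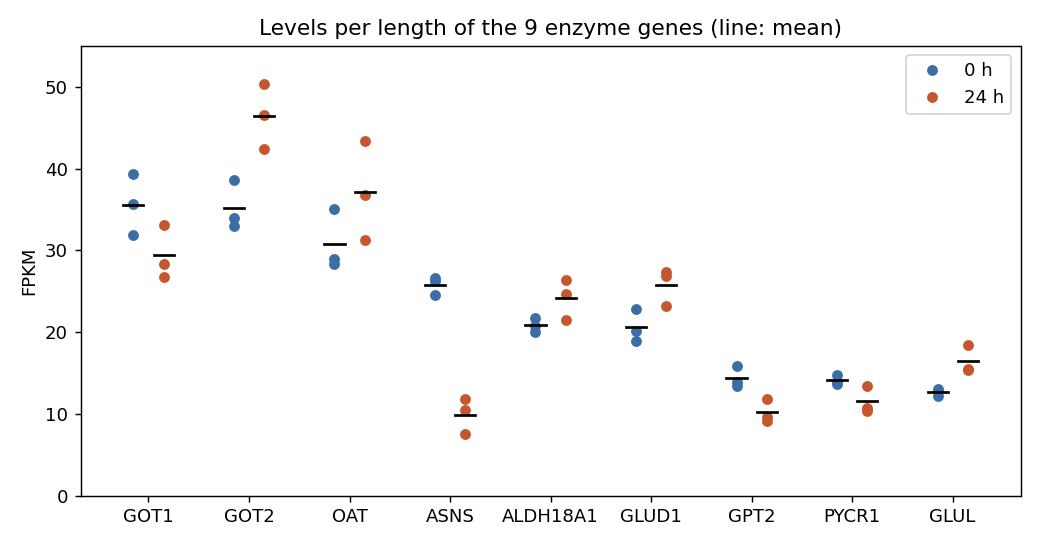
Levels per length of the 9 genes in FPKM (y axis, from 0), ordered by their mean at 0 h, with each library as a point (blue 0 h, orange 24 h) and the mean as a line. ASNS lies above ALDH18A1, GLUD1, GPT2, PYCR1 and GLUL at 0 h and is at the bottom with GPT2 and PYCR1 at 24 h.

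Around these 9 genes, 60 further genes of the same pathways were listed by function, of which 58 were in the count table and 46 passed the filter. Of the 46, 1 was higher and none was lower in the same edgeR fit, beside 0.866% higher and 2.08% lower among all genes, and 8 higher and 2 lower had an unadjusted p under 0.05, 21.7% of the 46 beside 18.1% of all genes tested. Their median log2 fold change was 0.07, beside 0.00 for all genes tested. The gene that rose was PRODH, proline dehydrogenase, which oxidises proline back to the intermediate that PYCR1 reduces. PRODH was at 18.3, 15.1 and 12.7 CPM in the 0 h replicates and at 23.8, 24.0 and 24.5 CPM in the 24 h replicates, without overlap, as were 10.9% of all genes in this direction. Its log2 fold change was 0.65 ± 0.15 (SE; Benjamini-Hochberg adjusted p = 0.0310 by edgeR's quasi-likelihood test, n = 3 each). PRODH was no longer called when 0 h replicate 2, any single library at 24 h, or both libraries numbered 3 were left out. Without 0 h replicate 3, 5 of 47 tested genes of the list (10.6%) were higher, beside 4.18% of all genes. With the scaling behind the FPKM 12 of 46 (26.1%) were higher, beside 17.6% of all genes.

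Within proline metabolism 1 of 6 tested genes rose and 5 did not pass. PYCRL, another reductase of this step, was at 0.81 ± 0.24 on the log2 scale, on 3.71 to 10.3 CPM. None of 8 tested genes of aspartate and asparagine metabolism passed, and the smallest p was that of ASL, argininosuccinate lyase (0.49 ± 0.14). ASRGL1, which breaks asparagine down, was at -0.04 ± 0.13. None of 6 tested genes of alanine and the other aminotransferases passed, and the smallest p was that of BCAT1, the cytosolic branched-chain aminotransferase (-0.37 ± 0.11). BCAT1 ran from 189 to 248 CPM at 0 h and from 162 to 175 CPM at 24 h, without overlap, and 11.7% of all genes lay wholly below at 24 h. Of the 2 related genes with the core shown above, BCAT1 lay below its 0 h values at 24 h and SLC25A11 lay above them (25.1 to 28.6 CPM at 0 h and 29.7 to 34.7 CPM at 24 h), as did 10.9% of all genes, and neither passed.

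None of 9 tested genes of glutamate and glutamine metabolism passed. The smallest p of that list was that of GFPT1, which uses glutamine to make hexosamine (-0.25 ± 0.10). None of 8 tested genes of ornithine and polyamine metabolism passed, with SRM, spermidine synthase, at 0.28 ± 0.10. None of 9 tested genes of the malate-aspartate shuttle and the mitochondrial carriers passed, with SLC25A11, the oxoglutarate carrier, at 0.31 ± 0.13. The shuttle dehydrogenases MDH1 (0.10 ± 0.11) and MDH2 (0.09 ± 0.10) and the aspartate-glutamate carriers SLC25A12 (-0.01 ± 0.16) and SLC25A13 (-0.07 ± 0.10) were near 0 on the log2 scale.

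**Figure D5:**
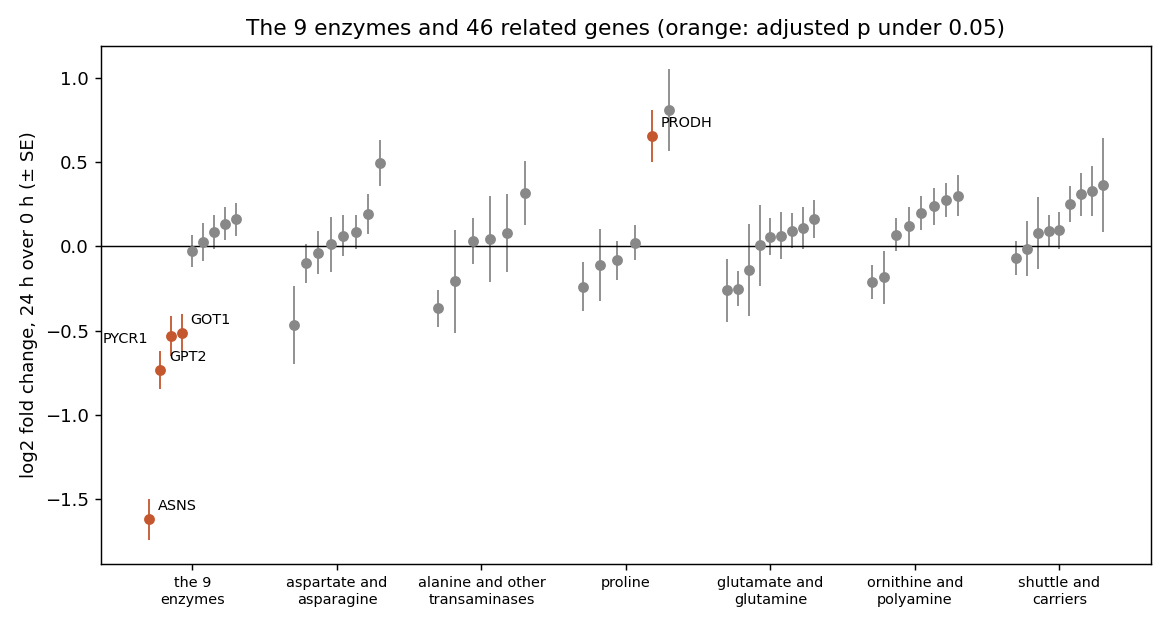
Log2 fold changes (y axis, 24 h over 0 h, ± SE) of the 9 genes and of 46 related genes in 6 lists by function, each point a gene and orange where the adjusted p is under 0.05. The called genes are ASNS, GPT2, PYCR1 and GOT1 below 0 and PRODH above 0.

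The genes whose course over the 6 libraries was most like that of ASNS were named by the root mean square difference between centred log2 CPM values, among 11242 tested genes with a mean of at least 5 CPM. The 5 nearest were the linker histone HIST1H1D (0.21), SHISA3, an adaptor of membrane receptors (0.23), SLC6A9, the glycine transporter (0.25), CH507-513H4.3, a transcript named only by its clone (0.26), and NCOA7, a nuclear receptor coactivator (0.26). Their log2 fold changes were -1.31 ± 0.17, -1.25 ± 0.22, -2.11 ± 0.22, -1.84 ± 0.26 and -1.21 ± 0.11. Some of these rest on few reads: at 24 h SHISA3 had 21 to 37 counts per library, SLC6A9 18 to 26 and CH507-513H4.3 15 to 16. HIST1H1D has near-identical relatives, and its value is uncertain. NCOA7 also had the core TGATGNAA in 1 of its RefSeq windows, across the start from position -4 to 4, while the windows of SLC6A9 and SHISA3 did not. Of the 9 genes, GPT2 was the next nearest to ASNS (0.47), followed by PYCR1 (0.56) and GOT1 (0.61), and the remaining 5 differed by 0.81 to 0.91. These measures rest on 6 libraries that also define the fold changes, and they are a description.

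The spread between libraries of 1 time set the precision. The coefficient of variation of the 9 genes in CPM ran from 3.11% to 12.4% at 0 h, with a median of 8.81%, beside 9.86% for 5464 tested genes between 30 and 200 CPM. At 24 h the median was 9.76% for the 9 genes and 7.79% for those 5464 genes. Where a gene did not pass, its 95% interval gives the range of changes compatible with these libraries under TMM scaling only. The widest of the 5 such intervals, that of OAT, ran from -0.21 to 0.27 on the log2 scale. The scaling behind the FPKM put each of the 5 genes above its upper limit, GOT2 at 0.40 against 0.37 and OAT at 0.271 against 0.269.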

How the data were processed

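RNA of HK-2 cells was measured by rRNA-depleted, directional, paired-end sequencing, per the labels' protocols. The deposited read counts are whole numbers per gene (28565 genes), and the authors' deposited FPKM values (28561 genes) are rounded to hundredths. The tools bcl2fastq, TopHat2 and edgeR and the build GRCh38 are named in the submitters' processing notes. Versions, counter, annotation and use of strand are not given in these sources. Reads were counted without molecular identifiers.

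Libraries of 24 h (3) and 0 h (3) entered a quasi-likelihood test of edgeR 4.0.16 in R 4.3.3 (TMM, filterByExpr, no covariates), adjusted by Benjamini-Hochberg over 13389 genes. The script was tested on simulated data, where it called 100% of genes changed by 1.5 on the log2 scale and 79% of those changed by 0.7. It also called 7 unchanged genes, with 13234 genes run. The simulation gave every gene the same biological coefficient of variation, 0.1, and held no library that stood apart. These shares therefore do not give the power in the real libraries. Changes as small as those of PYCR1 and GOT1 were not simulated. Fold changes are ± SE of the model. Whether libraries of a group are separate cultures is not labelled, and the series' design text speaks of 2 replicates, so p-values measure only the spread between these libraries. Alternatives were other scalings and filters, a robust fit, DESeq2 1.42.0, limma 3.58.1 on log2(FPKM + 1) and log2(FPKM + 0.1), a block by replicate number, and libraries left out.

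The members and lists were chosen with earlier results of these data known. Named were the 9 genes, every called gene and the smallest p of each related list, the 5 genes nearest to ASNS, and copies of members; other related genes were picked by function after their values were seen. Positions come from GENCODE 29, in which 7 of the 9 identifiers have the same version, and sequences from RefSeq (GRCh38.p14). Values of 2 related genes are not reported here.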

Additional observations from a re-analysis of the deposited data

How the results depend on the processing

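ASNS and GPT2 were called lower in all 18 alternatives, PYCR1 and GOT1 in 12 each, and GLUD1, OAT and ALDH18A1 in none, while GOT2 was called higher in 3 and GLUL in 1. With 1 library left out, 2 to 4 of the 9 genes and 0 to 5 of the related genes (at most 10.6%) were called, against 4 and 1 (2.17%). Of all genes 113 to 1497 were called (0.826% to 10.9% of those tested), against 394 (2.94%). The lowest count of the 9 was without 0 h replicate 2 and the highest count of all genes without 0 h replicate 3. Without both libraries numbered 3 the counts were 4, 2 (4.26% of related genes tested) and 845 (6.30% of all genes tested). The scaling behind the FPKM gave 12 related genes (26.1% of those tested) and 2549 of all genes (19.0%). No filter on low counts gave 3 of 58 related genes (5.17%) and 740 of 28565 genes, a share of 2.59% that was below the 2.94% of the main fit. Limma on log2(FPKM + 1) gave 9 (19.6%) and 1795 (13.4%), and limma on log2(FPKM + 0.1) gave 9 (19.6%) and 1768 (13.2%). Of all calls, 46.6% were higher with no filter. ALDH18A1 turned to 0.21 with the scaling behind the FPKM, 0.023 with no filter, and 0.20 and 0.21 by limma with pseudocounts of 1 and 0.1, and ran from -0.065 to 0.0087 with 1 library left out. OAT ran from -0.065 to 0.14 with 1 library left out. The cause of these changes was not tested.

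Whether replicate numbers pair the samples cannot be settled with 3 libraries per group. Deviations from the group mean correlated at 0.25, -0.02 and 0.43 in pairs 1, 2 and 3. Replicates 1 and 3 at 0 h correlated best with their own number at 24 h, and 0 h replicate 2 with 24 h replicate 1 (0.23). With the replicate number as a block, 4 of the 9 genes and 9 of 46 related genes (19.6%, with 7 higher and 2 lower) were called. Of all genes 1698 were called (12.7% of those tested), and 43.5% of these calls were higher. Without the block the counts were 4, 1 (2.17% of related genes) and 394 (2.94% of all genes tested).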
